A study of Homo sapiens with 6 samples.

Results

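Gene expression was examined for 58 neighbouring genes of the long arm of chromosome 6 (6q) in H69 and H69M, human small cell lung cancer cell lines profiled on 3 Affymetrix gene arrays per line. The genes lie in 3 stretches of the arm, named here by their ends: RNGTT to USP45 with 20 members, MCM9 to MED23 with 21 and TBPL1 to CITED2 with 17 (stretches 1, 2 and 3 in the plots). They were chosen by their measured difference between H69M and H69, as neighbours lower in H69M together with those that escape the shift, so that difference is described for them and not tested. All 58 were measured, among 18404 genes of the array with a single gene symbol and 974 of chromosome 6. H69 is a long-established line with neuroendocrine features whose cells float in clumps. The labels give no treatment, do not say how H69M was obtained, and do not say whether the 3 arrays of a line came from separate cultures. Values are log2 levels per probe set as deposited after RMA, and for 1 gene with several probe sets, MCM9, the probe set with the higher mean was used. A difference is H69M minus H69 on that log2 scale, so a negative value means a lower level in H69M.

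The members share a chromosome arm rather than a pathway. They include genes that cap, splice and modify RNA, genes of DNA replication, chromatin and the centromere, mitochondrial assembly factors, enzymes of the endoplasmic reticulum and Golgi, kinases and receptors, the transcription regulator genes MYB and CITED2, and genes of the cytoskeleton and cell junctions. A set of neighbours is informative when it moves as a block, and the members that stand apart from it are the ones to look at singly. DNA copy number and chromatin were not measured.

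Most of the 58 genes were lower in H69M, but by very different amounts, and some were much higher. The difference was below 0 in 51 members and above 0 in 7. It was -1 or less in 9 members, between -1 and -0.5 in 21, between -0.5 and -0.25 in 8, within 0.25 of 0 in 15, between 0.25 and 1 in 2 and above 1 in 3. The median was -0.53 (quartiles -0.82 and -0.13), beside -0.041 for all genes and -0.019 for the 9873 genes whose mean in the higher line reached 7.16, the median level of all genes. That level is used as a cut below. All 58 members reached it, 51 of them in both lines. MCM9, FAM184A, HINT3 and TXLNB reached it in H69 only (4 members). L3MBTL3, EPB41L2 and SGK1 reached it in H69M only (3 members). At limma's Benjamini-Hochberg threshold of 0.05, 41 members were lower and 6 higher, beside 23.2% lower and 21.0% higher of all genes. Among genes at the level cut those shares were 30.5% and 28.5%. Since the list was made on this contrast, the members' counts carry no weight beside these shares. The same holds below for the counts by role group, per array and of members whose lines did not overlap.

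The shift was not uniform. The differences of the members had an SD of 1.06, and their interquartile range was 0.69, whereas the standard error of a single member's difference was 0.066 at the median and 0.053 to 0.23 over all members. Members therefore differed from each other by far more than the arrays of a line did. In the MCM9 to MED23 stretch the SD was 1.38, and differences ran from -1.41 in FAM184A to 5.31 in EPB41L2. In the RNGTT to USP45 stretch it was 0.48, with differences from -1.73 in RRAGD to 0.23 in MAP3K7. In the TBPL1 to CITED2 stretch it was 1.12, from -2.24 in TXLNB to 2.52 in SGK1. The medians were -0.42 for RNGTT to USP45, -0.52 for MCM9 to MED23 and -0.80 for TBPL1 to CITED2. The interquartile ranges were 0.51, 0.47 and 0.97 in the same order. MCM9 to MED23, the stretch with EPB41L2, thus had the largest SD but the smallest interquartile range. The median member lay 0.51 below its H69 mean on H69M replicate 1, 0.53 below on replicate 2 and 0.49 below on replicate 3. On each of these arrays 50 members were below. The members were chosen on these same arrays, so this common direction was largely fixed by the choice and gives no support to the shift. The H69 arrays had medians between -0.022 and 0.020. All 3 H69M arrays lay below all 3 H69 arrays in 45 members and above them in 6, beside 30.0% and 25.8% of all genes and 37.6% and 34.9% of genes at the level cut, and the lines overlapped in 7.

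**Figure D1:**
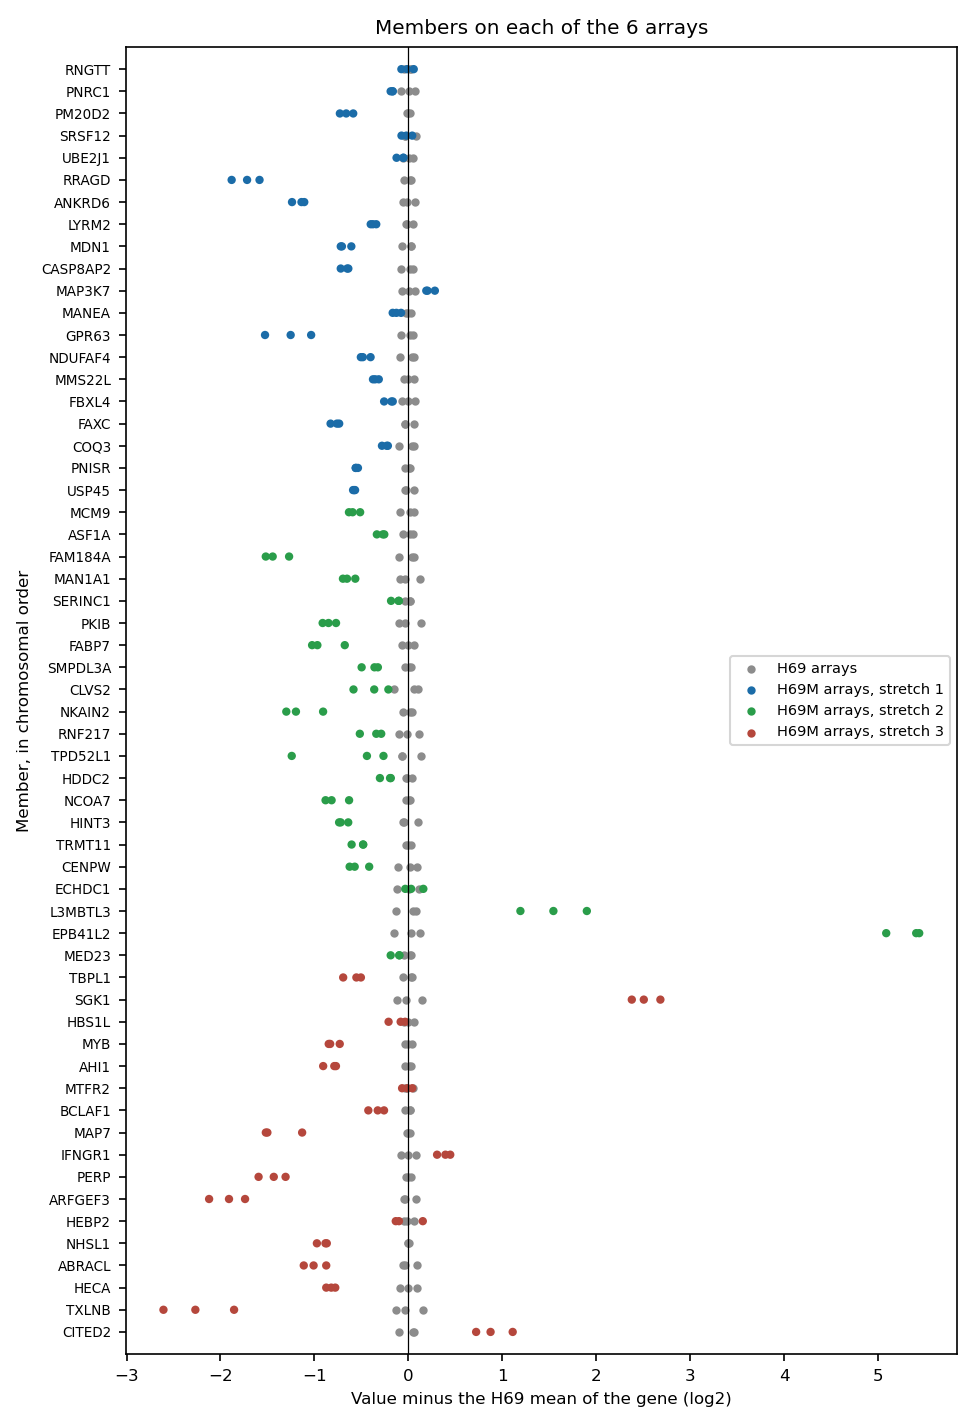
Each point is 1 array's log2 value of a member minus the mean of the 3 H69 arrays for that gene (x axis), with members in chromosomal order (y axis), H69 arrays in grey and H69M arrays coloured by stretch. Most H69M points lie left of 0 at distances that differ from gene to gene, and EPB41L2, SGK1, L3MBTL3 and CITED2 lie to the right.

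Level did not order the differences. Across the 58 members, Pearson's r between the mean level over both lines and the difference was -0.30 and Spearman's rho was -0.030. All points come from the same 6 arrays, and genes are not independent replicates.

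The lowest members relative to H69 were TXLNB, ARFGEF3, RRAGD, PERP and FAM184A. TXLNB, a syntaxin-binding coiled-coil protein of the taxilin family (probe set 8129924), read 9.19, 8.99 and 8.90 on the H69 arrays and 7.17, 6.76 and 6.42 on the H69M arrays. The lines were far apart, with a wide spread in H69M (SD 0.38, n = 3), and the level was 4.73-fold lower in H69M (-2.24 ± 0.18, log2, SE). Its H69M mean of 6.79 lay below the level cut, so this fold is one of deposited values near the dim range. ARFGEF3, related to the exchange factors of ARF GTPases, stood at 9.85, 9.87 and 9.98 in H69 and at 8.16, 7.99 and 7.78 in H69M. Its lines did not overlap either, and it was 3.79-fold lower. RRAGD, a Rag GTPase that brings mTORC1 to the lysosome, had 11.09, 11.16 and 11.15 in H69, among the brightest values of the set, and 9.55, 9.25 and 9.42 in H69M (3.31-fold lower). PERP, a membrane protein of desmosomes and a target of p53 and p63, was the brightest member in H69 with 11.65, 11.63 and 11.61, and reached 10.32, 10.20 and 10.04 in H69M (2.72-fold lower). FAM184A went from 8.25, 8.09 and 8.23 to 6.92, 6.68 and 6.75, which took it below the level cut in H69M.

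EPB41L2 and SGK1 went furthest in the opposite direction, inside the same stretches. EPB41L2 encodes protein 4.1G, which links the membrane to the actin and spectrin skeleton (probe set 8129497). It was dim in H69 (4.13, 4.22 and 3.95) and bright in H69M (9.19, 9.54 and 9.51), a difference of 5.31. SGK1, the serum- and glucocorticoid-induced kinase, had 5.17, 5.44 and 5.27 in H69 and 7.67, 7.97 and 7.80 in H69M, a difference of 2.52. In H69 both lay below the level cut and within the 2.79 to 6.58 spanned by the means of the endothelial and leukocyte markers that stayed below it, so neither is shown to be above background there. Their differences are therefore given as differences of deposited values, with no fold. In the order of genes at the level cut, L3MBTL3 before EPB41L2 was also higher (1.55), ARHGAP18 before that differed by -1.65 and MED23 after it by -0.13. In the same order SGK1 lay between SLC2A12 (-0.32, or -0.17 without H69M replicate 3) and HBS1L (-0.11).

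The promoters of these 4 genes at the ends of the range are shown as the 250 bases before a RefSeq start (GRCh38.p14), in lower case with each GC box (GGGCGG on either strand, the binding sequence of SP1-type factors) in capitals. TXLNB is at chr6:139291999-139292248 (minus strand), ARFGEF3 at chr6:138161689-138161938 (plus strand), EPB41L2 at chr6:131063246-131063495 (minus strand) and SGK1 at chr6:134174867-134175116 (minus strand). RefSeq lists 1 start each for TXLNB and ARFGEF3, 4 for EPB41L2 and 3 for SGK1, and for the latter pair the start with the most CG pairs is printed, a choice made after the counts were seen. Which start these cells use is not known from the arrays.
TXLNB: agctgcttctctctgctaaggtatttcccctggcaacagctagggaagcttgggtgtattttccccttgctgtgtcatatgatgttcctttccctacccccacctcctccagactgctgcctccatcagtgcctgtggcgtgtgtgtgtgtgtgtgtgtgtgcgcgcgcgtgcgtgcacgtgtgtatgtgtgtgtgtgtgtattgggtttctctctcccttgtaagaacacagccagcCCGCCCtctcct
ARFGEF3: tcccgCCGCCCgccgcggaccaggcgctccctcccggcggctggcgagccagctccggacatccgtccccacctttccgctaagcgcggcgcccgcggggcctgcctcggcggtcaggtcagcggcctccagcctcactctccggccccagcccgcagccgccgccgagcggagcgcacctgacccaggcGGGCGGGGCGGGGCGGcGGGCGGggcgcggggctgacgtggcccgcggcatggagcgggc
EPB41L2: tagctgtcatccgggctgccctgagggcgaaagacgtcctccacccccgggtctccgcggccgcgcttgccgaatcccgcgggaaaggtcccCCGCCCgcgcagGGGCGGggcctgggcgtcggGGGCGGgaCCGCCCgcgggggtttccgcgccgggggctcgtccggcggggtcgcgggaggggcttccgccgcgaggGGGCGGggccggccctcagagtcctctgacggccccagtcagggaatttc
SGK1: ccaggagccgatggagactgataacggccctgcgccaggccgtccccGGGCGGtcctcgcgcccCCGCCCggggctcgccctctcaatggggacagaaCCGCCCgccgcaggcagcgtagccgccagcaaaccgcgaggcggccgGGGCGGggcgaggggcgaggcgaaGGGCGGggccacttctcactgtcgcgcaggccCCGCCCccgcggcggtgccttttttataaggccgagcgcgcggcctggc

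The ARFGEF3 window held 39 CG pairs and 5 GC boxes (overlaps counted), and the TXLNB window 8 and 1. The printed windows of EPB41L2 and SGK1 each held 35 CG pairs, which their choice fixed, with 5 and 6 GC boxes. The other starts of EPB41L2 had 2, 2 and 3 CG pairs and those of SGK1 had 3 and 5, all with 0 GC boxes. Over the 53 members with a listed promoter (82 starts), 54.9% of starts held a GC box, beside 54.7% of the 20100 starts of all measured genes. The TATA box TATAAA stood in 9.76% of member starts and in 8.58% of all starts, and in all 3 listed starts of SGK1. The CCAAT box CCAAT was in 24.4% of member starts and 32.6% of all, the E-box CAGGTG, bound by ZEB and SNAI repressors, in 14.6% and 16.8%, the AP-1 site TGANTCA in 2.44% and 5.30%, and the TEAD site GGAATG in 6.10% and 10.4%. Every motif was searched on both strands. The 6 members called higher had 16 starts, of which 1 held the TEAD site and 0 the AP-1 site. These are matches of letters in a window and do not show binding.

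The 10 members that make, process or translate RNA were all lower or near 0, by small amounts. Their median was -0.26, with 6 (60%) past the threshold lower and 0 higher, beside 30.5% and 28.5% of genes at the level cut. MDN1, the large ATPase that matures the 60S ribosomal subunit, differed by -0.68, going from 9.01, 9.01 and 8.91 to 8.37, 8.27 and 8.26. TBPL1, a relative of the TATA-binding protein, differed by -0.58, the SR-rich nuclear protein gene PNISR by -0.55, TRMT11, the catalytic subunit of a tRNA methyltransferase, by -0.52, and BCLAF1, a nuclear RNA-associated factor, by -0.34. PNISR had the smallest standard error of any member (0.053), and its arrays stood at 9.70, 9.64 and 9.69 against 9.11, 9.12 and 9.14. The differences of PNRC1 (-0.17), MED23 (-0.13) and the ribosome rescue GTPase gene HBS1L (-0.11) were slight. RNGTT, the mRNA capping enzyme, read 8.79, 8.72 and 8.80 in H69 and 8.69, 8.76 and 8.83 in H69M, and the splicing regulator gene SRSF12 8.152, 8.031 and 8.033 against 8.113, 7.999 and 8.050. In both, the lines overlapped, with differences of -0.010 and -0.018.

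Of 6 members of replication, chromatin and division, 5 were lower and L3MBTL3 was higher. CASP8AP2, which takes part in histone pre-mRNA processing, differed by -0.67 (9.06, 9.10 and 8.97 against 8.40, 8.32 and 8.39), the helicase gene MCM9 by -0.58 and the centromere protein gene CENPW by -0.54. MMS22L, a partner of TONSL at damaged replication forks, differed by -0.35 and the histone chaperone gene ASF1A by -0.29. The other probe set of MCM9 gave -0.60. L3MBTL3, a reader of methylated lysine, had 6.68, 6.65 and 6.47 in H69 and 7.79, 8.14 and 8.50 in H69M, a difference of 1.55 with the lines well apart. Its H69 level was dim too. Between it and EPB41L2 lie SAMD3 and TMEM200A, which did not reach the level cut (0.55 and 1.39).

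The 12 mitochondrial and metabolic members had a median of -0.31. Of them, 9 (75%) passed the threshold lower and 0 higher, beside 30.5% and 28.5% of genes at the level cut. FABP7, a fatty acid binding protein of neural cells, had the lowest difference, -0.89 (9.96, 10.03 and 9.90 against 9.28, 8.99 and 8.94). HINT3 differed by -0.70 and PM20D2, a peptidase, by -0.66. The complex I assembly factor gene NDUFAF4 differed by -0.46, SMPDL3A by -0.39, LYRM2 by -0.37, the coenzyme Q methyltransferase gene COQ3 by -0.24, HDDC2 by -0.23 and FBXL4, a regulator of mitophagy, by -0.20. The remaining members showed overlapping lines: ECHDC1 (0.052), MTFR2 (-0.012) and HEBP2 (-0.027). HEBP2, a heme-binding protein, was the brightest member but for CITED2 in H69M, at 10.96, 11.21 and 10.92 beside 11.04, 11.12 and 11.01 in H69, although the members on either side, ARFGEF3 and NHSL1, differed by -1.92 and -0.91.

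Of 8 ubiquitin, secretory and glycan members, 5 (62.5%) passed the threshold lower and 0 higher, beside 30.5% and 28.5% of genes at the cut. After ARFGEF3, the lowest were the Golgi mannosidase gene MAN1A1 (-0.64; 9.45, 9.30 and 9.23 against 8.76, 8.67 and 8.63), the deubiquitinase gene USP45 (-0.58), CLVS2 (-0.39) and the ubiquitin ligase gene RNF217 (-0.38). SERINC1 (-0.13), MANEA, a Golgi endomannosidase (-0.12), and UBE2J1, the ubiquitin-conjugating enzyme of endoplasmic reticulum quality control (-0.077), were close to 0. UBE2J1 and RRAGD follow each other among the members, and they differed by -0.077 and -1.73.

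Receptor, kinase and signalling members were split, with 4 of 7 lower and 3 higher. GPR63, an orphan receptor of neural tissue, read 9.86, 9.83 and 9.74 in H69 and 8.77, 8.28 and 8.56 in H69M (2.41-fold lower), and ANKRD6, which takes part in WNT and planar polarity signalling, 9.73, 9.69 and 9.80 against 8.60, 8.50 and 8.63 (2.24-fold lower). PKIB, an inhibitor of protein kinase A, differed by -0.84. On the higher side stood SGK1, IFNGR1 and MAP3K7. IFNGR1, the ligand-binding chain of the interferon gamma receptor, went from 7.934, 8.089 and 8.003 to 8.314, 8.403 and 8.454 (1.30-fold higher). MAP3K7, the kinase TAK1 of cytokine and TGF-beta signalling, went from 9.40, 9.48 and 9.54 to 9.68, 9.76 and 9.67 (1.17-fold higher). In both, the lines did not overlap, but the step was small.

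Among transcription regulators, MYB and CITED2 went opposite ways. MYB, which drives proliferation of progenitor cells, read 8.55, 8.58 and 8.52 in H69 and 7.82, 7.72 and 7.70 in H69M, 1.75-fold lower. NCOA7 differed by -0.78. CITED2, which binds CBP and p300 and thereby limits HIF activity, was already bright in H69 (10.24, 10.25 and 10.09) and was 1.87-fold higher in H69M (10.92, 11.07 and 11.31). It is the last member of its stretch and comes after TXLNB, the member with the lowest difference.

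The cytoskeleton, junction, cilia and remaining members had the lowest median of the role groups, -0.95. Past the threshold, 10 of 12 (83.3%) were lower and EPB41L2 was higher, beside 30.5% and 28.5% of genes at the level cut. MAP7, which recruits kinesin to microtubules, read 8.94, 8.97 and 8.94 in H69 and 7.82, 7.45 and 7.43 in H69M (2.61-fold lower). NKAIN2, which binds the sodium pump, differed by -1.13, ABRACL by -0.999, NHSL1 by -0.91, AHI1, a protein of the ciliary transition zone, by -0.82, HECA by -0.82 and FAXC by -0.78. TPD52L1 had the widest spread of any member: 9.82, 10.02 and 9.81 in H69 against 9.44, 9.62 and 8.64 in H69M. Its difference of -0.65 ± 0.23 (log2, SE) became -0.35 without H69M replicate 3, the low array.

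Genes between the ends that are not on the list also lay on both sides of 0. There were 36 of them, with a median of -0.032, and 21 (58.3%) were below 0, beside 57.0% of all genes. Limma's threshold was passed by 11 (30.6%) in each direction, beside 23.2% lower and 21.0% higher of all genes. Of the 36, the 12 that reached the level cut had a median of -0.55 with quartiles of -1.34 and 0.40. Of those 12, 8 were below 0. HEY2, a Notch target, differed by -1.84 (10.23, 10.22 and 10.09 against 8.64, 8.28 and 8.10), and ARHGAP18 by -1.65 (9.26, 9.24 and 9.28 against 7.25, 7.60 and 7.97), both lower than any member of the MCM9 to MED23 stretch. Not below 0 were POU3F2, a neural transcription factor (0.50), RNF146 (0.50), the connexin gene GJA1 (0.36, or 0.21 without H69M replicate 3) and TNFAIP3, which restrains NF-kB signalling (1.502; 7.24, 7.27 and 6.89 against 8.82, 8.72 and 8.37). The other 6, named after their values were seen, were EPHA7 (-1.26), FUT9 (-1.11), PTPRK (-0.27), SLC2A12 (-0.32 with all arrays), MAP3K5 (-0.77) and SLC35D3 (-1.57). TNFAIP3 passed the cut through H69M alone (mean of 7.13 in H69), so the cut favoured its high value. SLC35D3 passed through H69 alone (mean of 6.80 in H69M), which favoured its low value.

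**Figure D2:**
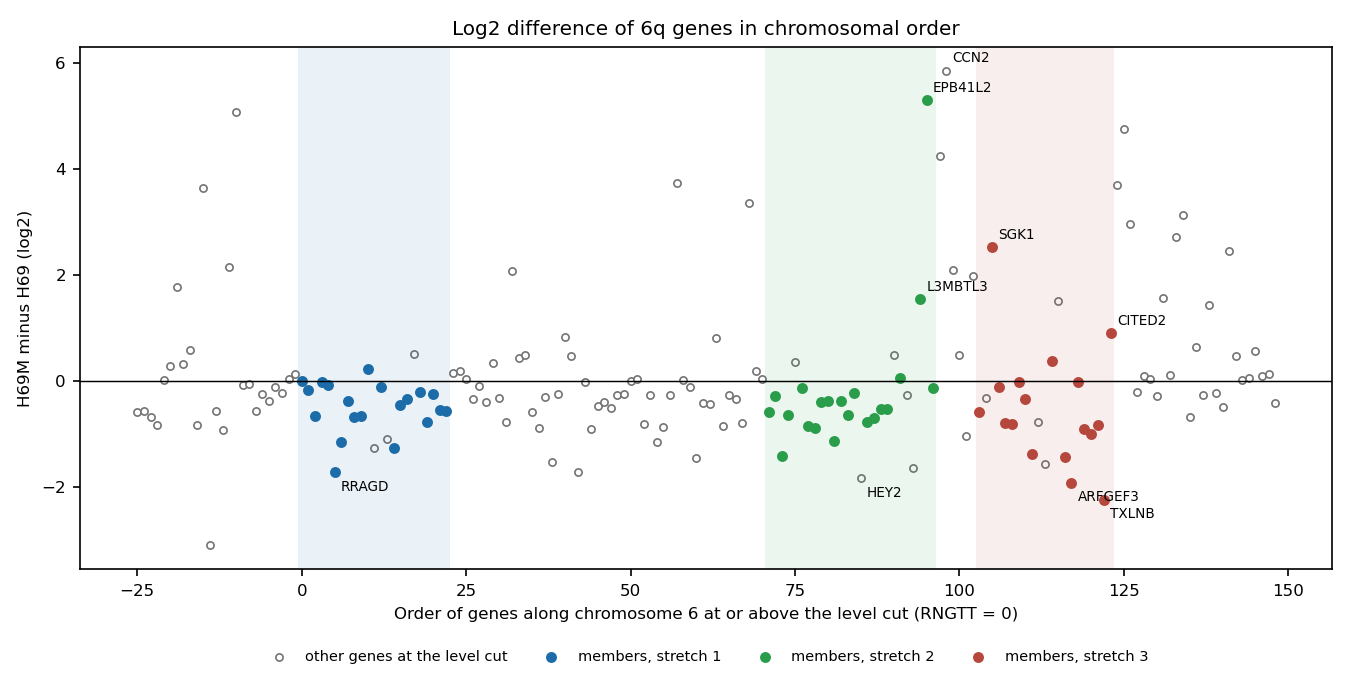
Log2 difference, H69M minus H69 (y axis), of every gene at the level cut from 25 genes before RNGTT to 25 genes after CITED2, in chromosomal order (x axis, RNGTT at 0). Filled points are members by stretch, shaded bands run from the first to the last member of a stretch, and open points are other genes; members scatter between -2.24 and 5.31, and points below 0 continue outside the bands.

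Genes that flank the stretches took values on both sides of 0. The nearest 5 genes at the level cut before RNGTT were SMIM8 (-0.37), SLC35A1 (-0.12), RARS2 (-0.24), ORC3 (0.038) and AKIRIN2 (0.13), so values climbed to 0 there, and RNGTT itself was at 0. After USP45 came CCNC (0.15), PRDM13 (0.19), ASCC3 (0.030), GRIK2 (-0.34) and HACE1 (-0.10). Before MCM9 lay RWDD1 (-0.35), KPNA5 (-0.79), DCBLD1 (3.36), GOPC (0.18) and NUS1 (0.038). Between MED23 and TBPL1 lay 20 measured genes with a median of -0.013. Limma's threshold was passed by 5 of them (25%) in each direction, beside 23.2% lower and 21.0% higher of all genes. Of the 20, 6 reached the cut, and 5 were higher. CCN2, a YAP target, differed by 5.86 (5.98, 6.38 and 5.83 against 11.60, 11.83 and 12.33). The others were ENPP1 (4.25), MOXD1 (2.09), EYA4 (1.98) and STX7 (0.49). SLC18B1 was lower (-1.05). After CITED2 came ADGRG6 (3.70), HIVEP2 (4.75) and AIG1 (2.96), followed by ADAT2 (-0.21) and FUCA2 (0.086). DCBLD1, ENPP1, CCN2, EYA4, ADGRG6, HIVEP2 and AIG1 passed the cut through H69M alone and were dim in H69, with means of 3.79 to 6.38, so the cut favoured high values among them and their sizes are no measure of a border. PRDM13 also passed through H69M alone, with a mean of 6.98 in H69. KPNA5 and SLC18B1 passed through H69 alone (means of 6.43 and 6.51 in H69M), so the cut favoured their low values.

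The rest of chromosome 6 was lower too, by less. Of 469 genes at the level cut outside the 3 stretches, 310 (66.1%) were below 0, with a median of -0.16, whereas on other chromosomes 51.2% of 9323 genes were, with a median of -0.010. Limma's Benjamini-Hochberg threshold was passed by 210 of the 469 lower (44.8%) and 91 higher (19.4%), beside 30.5% and 28.5% of all genes at the cut. By segment, the median was -0.16 over 345 genes before RNGTT, -0.26 over 48 genes between USP45 and MCM9, and -0.081 over 70 genes after CITED2. With members included, chromosome 6 had the 3rd lowest median of the 22 autosomes and X (-0.18), after chromosomes 22 (-0.29) and 18 (-0.25). No test was made of these differences between segments, whose borders were set on the same contrast.

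**Figure D3:**
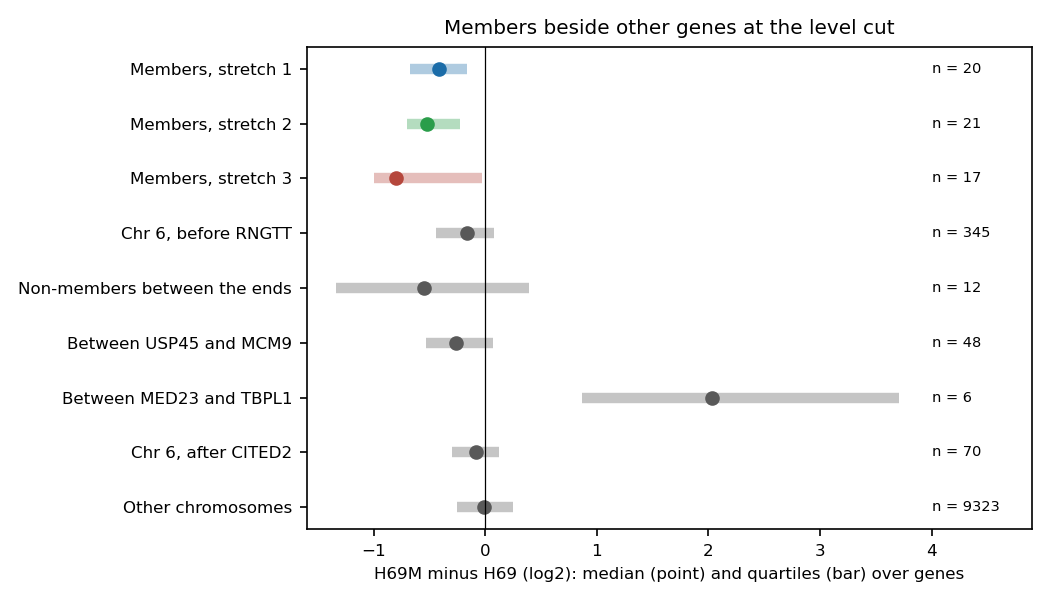
Median (point) and quartiles (bar) of the log2 difference, H69M minus H69 (x axis), over the members of each stretch and over other genes at the level cut, with the number of genes at the right. Member medians are -0.42, -0.52 and -0.80, the 3 larger segments outside the stretches lie between -0.26 and -0.081, and the 6 genes between MED23 and TBPL1 lie at 2.03, of which 3 passed the cut through H69M alone; the median of all 20 there is -0.013.

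Genes elsewhere in the genome that work with the members moved in both directions. In 18 lists of complex and pathway partners, 208 measured genes lay outside chromosome 6. Of these, 58 (27.9%) fell and 50 (24.0%) rose at limma's Benjamini-Hochberg threshold of 0.05, beside 23.2% and 21.0% of all genes, and their median was -0.032. Of the 184 partners at the level cut, 58 (31.5%) fell and 44 (23.9%) rose, beside 30.5% and 28.5% of all genes there. These lists were not used in choosing the members. For MED23, 0 of 24 other Mediator subunits fell and 7 (29.2%) rose, with MED10 up by 0.56 (limma, adjusted p = 0.000155). For TRMT11, 0 of 6 TRMT112-network genes passed in either direction, and for MDN1, 1 of 5 Rix1 complex genes fell and 1 rose. Among SR and related splicing genes 6 of 18 (33.3%) fell and 0 rose, all by less than 0.5. The share that fell was near that of all genes at the cut.

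Replication, centromere, complex I and coenzyme Q partners had more genes lower than higher. Among all genes 23.2% were lower and 21.0% higher, and among genes at the level cut 30.5% and 28.5%. The lists are small, and no test was made of them as sets. Of 15 replication and histone chaperone genes, 9 (60%) fell and 1 (6.67%) rose. CABIN1 (-0.80; limma, adjusted p = 1.97e-05) and HIRA (-0.62; limma, adjusted p = 0.000257), subunits of the HIRA chaperone that works with ASF1A, led them. Of 13 centromere network genes 6 (46.2%) fell and 2 (15.4%) rose, with CENPP at -0.82 and CENPM at -0.78. HIRA, CABIN1 and CENPM lie on chromosome 22, where 193 of 243 genes at the level cut were below 0. Complex I assembly factors had 8 of 15 lower (53.3%) and 2 higher (13.3%), among them NDUFAF5 (-0.59), NUBPL (0.80) and TIMMDC1 (0.71). NUBPL stayed below the level cut in both lines (means of 6.30 in H69 and 7.10 in H69M). Coenzyme Q genes had 6 of 11 lower (54.5%) and 1 higher (9.09%), with COQ8A at -0.54 and COQ10A at -0.53.

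Partners of RRAGD moved both ways, and those of MAP3K7 and IFNGR1 that passed the threshold all rose. Of 17 Rag and lysosomal mTORC1 genes 4 (23.5%) fell and 3 (17.6%) rose, beside 23.2% and 21.0% of all genes. FNIP2 fell by 1.33 (limma, adjusted p = 3.88e-06) and FNIP1 fell by 0.53; with folliculin they act on the RagC and RagD GTPases. RRAGC, the closest relative of RRAGD, named after its value was seen, rose by 0.46 (limma, adjusted p = 0.000582). Of 9 TAK1 signalling genes 5 (55.6%) rose and 0 fell, with the kinase genes MAP2K6, MAP2K4 and MAP2K3 up by 0.80, 0.62 and 0.59. MAP2K6 was dim in both lines (means of 5.15 in H69 and 5.95 in H69M), so it is not shown to be above background. Of 6 genes of the interferon gamma receptor chain 4 (66.7%) rose and 0 fell. SOCS1 rose by 0.91 and IFNGR2, the second receptor chain, by 0.82 (limma, adjusted p = 1.92e-05). JAK1 rose by 0.67 and SOCS3, named after its value was seen, by 0.52.

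The remaining lists were mixed, and their counts stand beside 23.2% lower and 21.0% higher of all genes. Endoplasmic reticulum degradation genes, partners of UBE2J1, had 8 of 20 higher (40%), such as EDEM2 (0.67) and EDEM1 (0.65), and 4 lower (20%), such as DERL3 (-0.63). N-glycan trimming genes had 4 of 11 (36.4%) in each direction, led by MAN2A1 (1.07) and MAN1C1 (-0.85). Ciliary transition zone genes, partners of AHI1, had 6 of 13 (46.2%) higher and 1 (7.69%) lower (TMEM237 0.55, B9D2 -0.56). The coactivators of MYB and CITED2 had 3 of 8 (37.5%) in each direction, with HIF1A up by 0.65 and TFAP2C up by 0.67 from a dim level. Histone pre-mRNA processing had 3 of 8 (37.5%) in each direction, ribosome rescue 2 of 6 lower (33.3%), and capping 1 of 3 lower (33.3%).

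**Figure D4:**
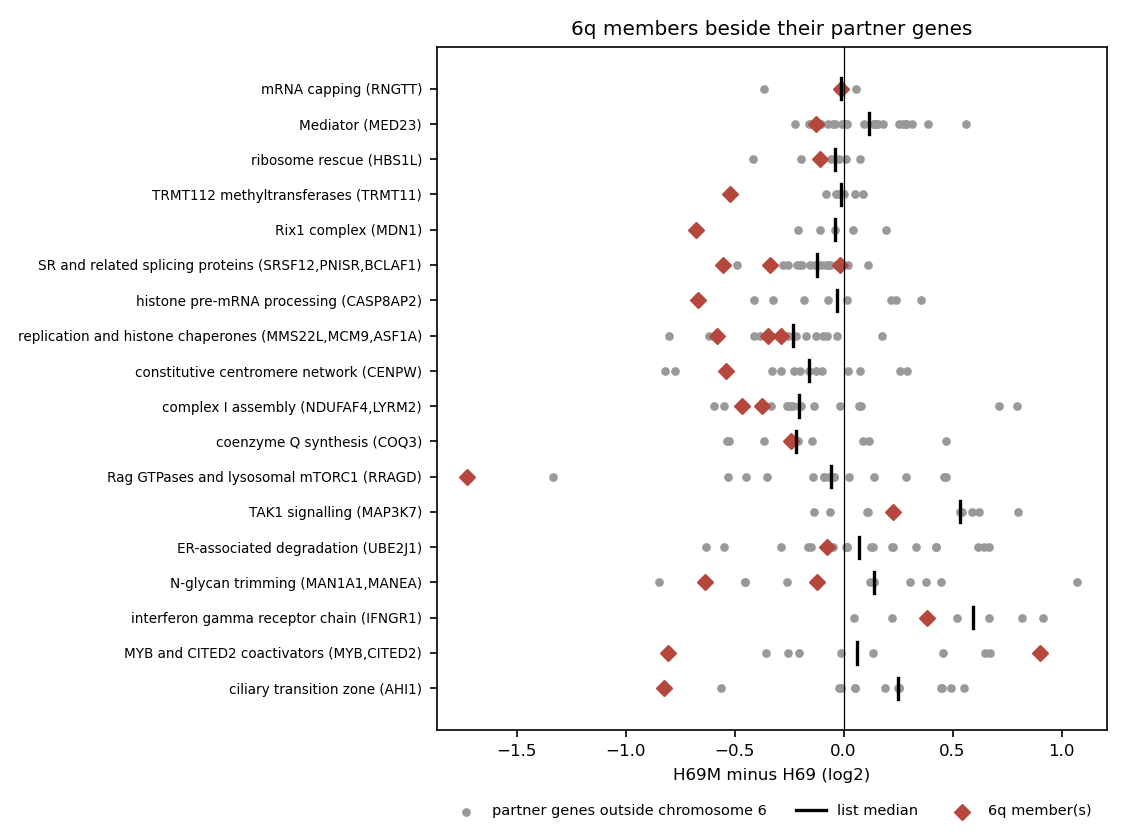
Log2 difference, H69M minus H69 (x axis), for 18 lists of partner genes outside chromosome 6 (grey points, black bar at the list median) and for the 6q members they work with (red diamonds, named in brackets on the y axis). RRAGD at -1.73 lies lowest, and list medians range from -0.23 to 0.59.

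The closest relatives of the members elsewhere in the genome also moved both ways. Of 52 measured, with a median of 0.097, 16 (30.8%) fell and 18 (34.6%) rose (limma, Benjamini-Hochberg threshold 0.05). Among all genes 23.2% fell and 21.0% rose. Of the 38 relatives at the level cut, 13 (34.2%) fell and 15 (39.5%) rose, beside 30.5% and 28.5% of all genes there. FABP4 rose by 1.80 from a dim level, and NKAIN3 and NKAIN1 rose by 1.30 and 1.11 while NKAIN2 was lower. Other relatives, named after their values were seen, included TPD52 (-0.65), CLVS1 (-0.62) and MYBL1 (-0.26), which fell, and MYBL2 (0.34), which rose. For EPB41L2, the relatives EPB41 (-0.12; limma, adjusted p = 0.293) and EPB41L1 (0.14; limma, adjusted p = 0.109) did not pass, and EPB41L3 fell by 0.33.

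Markers of cell types moved between the lines along with the 6q genes. All 9 measured neuroendocrine markers were above the level cut in both lines, and 7 fell in H69M; the sum of their linear values lay between 8769 and 8956 in H69 and between 4398 and 5500 in H69M. All 10 fibroblast markers rose, with sums of 847 to 873 in H69 and 9360 to 12263 in H69M. DCN and PDGFRA, 2 of these 10, stayed below the level cut in both lines. Among all genes 23.2% fell and 21.0% rose. Of 8 endothelial markers 3 rose and 1 fell (sums of 404 to 441 in H69 and 373 to 393 in H69M), and of 7 leukocyte markers 1 rose and 3 fell (314 to 333 and 324 to 334); 7 of each list stayed below the level cut in both lines. RMA values have no true zero, and the lowest mean among all markers was 2.79. In such bulk RNA, fewer cells of a type and less RNA per cell cannot be told apart. The part of these markers in the 6q differences was not tested.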

How the data were processed

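The deposited table holds log2 values of 32321 probe sets on 6 arrays; per the submitters' processing notes the authors used RMA and limma, without versions, and the genome build is not given in the sources used here. Genes were named from 19158 probe sets with 1 symbol in the platform annotation (18404 genes), of which 19128 matched RefSeq genes of GRCh38.p14 by Entrez ID; that table gave gene order only. The probe set with the highest mean was used for the 637 genes with several. H69M was compared with H69 by limma 3.58.1 in R 4.3.3 (lmFit, eBayes, group as the only term, two-sided), with Benjamini-Hochberg adjustment over 18404 genes; the code was tested on simulated data. Python 3.11.15 with pandas 2.3.3 and matplotlib 3.10.9 made the tables and plots.

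The members and all gene lists were chosen with earlier results of these data known. Besides all members, the rule named other genes between the ends of a stretch that reached the level cut and were not below 0 or lay below every member of it, the nearest 5 at the cut on each side, and per partner list up to 3 past the threshold by at least 0.5. The labels do not say that arrays of a line came from separate cultures, so p-values reflect array-to-array spread that could be technical, and the number of arrays limits the precision. Alternatives were the replicate block, centring, renewed quantile normalization, level filters, other variance models and array weights, other probe set rules, and each array left out.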

Additional observations from a re-analysis of the deposited data

How the results depend on the processing

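Under 16 alternatives the count of members below 0 stayed between 47 and 51, and 53 of 58 members kept their sign throughout; the exceptions, RNGTT, SRSF12, ECHDC1, MTFR2 and HEBP2, differed by at most 0.052. With each array centred on its median, the median of the members was -0.50 and that of chromosome 6 outside the stretches -0.13. With each array left out in turn the member median ranged from -0.54 to -0.50, and 37 to 40 members were called lower. The calls of 7 members (PNRC1, MAP3K7, FBXL4, COQ3, CLVS2, TPD52L1 and HDDC2) changed without at least 1 array. Leaving out genes below the median level removed EPB41L2 and SGK1, so it gives no value for them. No scaling moved the median of all genes by as much as 0.1. Arrays that share a replicate number did not deviate together (correlations of 0.0062, -0.00021 and -0.0081), so no shared effect of the numbers was seen. Whether arrays with the same number were prepared together is not known from the labels. With the replicate block 4021 genes were called lower and 3617 higher, in place of 4274 and 3866, with 40 and 6 members in place of 41 and 6; the partner genes had 46 lower and 46 higher. The small number of arrays limits what differences near 0 can show.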

Other observations

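Runs of adjacent lower genes were also found on chromosome 6 away from the members. Among genes at the level cut, the longest unbroken run with differences below 0 held 15 genes, from VARS2 to GPANK1, with 0 members and a median of -0.19. The next held 14 genes, from SERINC1 to CENPW, with 13 members and a median of -0.59; the single gene in it that is not a member is HEY2. RNGTT to CASP8AP2 formed a run of 10, all members, with a median of -0.52. Runs of 11 lay between BYSL and PEX39 (median -0.31) and between KDM1B and TDP2 (median -0.36). A run of 8 from HBS1L to SLC35D3, with 6 members, had a median of -0.79. Of the same length, RIOK1 to PAK1IP1 had a median of -0.77 and SENP6 to ELOVL4 one of -0.64, both with 0 members. Run lengths depend on which genes are measured and reach the cut, and no test was made of them.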
